A study of Mus musculus with 3 samples.

Results

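The genes described here are 10 genes of antigen-receptor recombination and early lymphoid regulation, *Rag1*, *Rag2*, *Dntt*, *Ikzf1*, *Ikzf3*, *Tcf3*, *Ebf1*, *Pax5*, *Foxo1* and *Bach2*. They were taken by gene symbol from a table of 36172 genes, and all 10 symbols were found. Gene expression was measured by RNA sequencing in LSK cells (lineage-negative, Sca1-positive and c-Kit-positive), a bone marrow fraction of hematopoietic stem cells and early progenitors. There were 3 libraries, 1 per genotype, and each came from cells of 4 male mice aged 3 months. The del10 library was from heterozygous *Calr* del10/WT knock-in mice, the ins2 library from heterozygous *Calr* ins2/WT knock-in mice, and the WT library from *Calr* WT/WT mice, all on a C57BL/6 background, given in the study's methods as C57BL/6 J. Both knock-in alleles shift the reading frame of calreticulin in exon 9, the last exon, and were made with CRISPR-Cas9 in fertilized eggs. The edited founders were crossed with wild-type mice, heterozygous mice of the third or a later generation were used with WT littermates, and the alleles were not restricted to blood cells. With 1 pooled library per genotype the spread between mice is unknown, so differences below are stated without p-values.

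B and T lymphocytes assemble their antigen-receptor genes by V(D)J recombination. The RAG1 and RAG2 proteins together form the recombinase that cuts DNA at recombination signals, and terminal deoxynucleotidyl transferase, the product of *Dntt*, adds untemplated nucleotides before the cut ends are joined. In the bone marrow the E proteins of *Tcf3*, then EBF1 and PAX5, act in sequence to specify and commit B-lineage cells, Ikaros-family factors prepare lymphoid genes for expression, FOXO1 is needed for expression of the recombinase genes and of the interleukin-7 receptor, and BACH2 is a repressor that favours the lymphoid over the myeloid programme. Lymphoid-primed progenitors among LSK cells already express *Rag1* and *Dntt*.

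The 10 genes lie on 6 chromosomes of mm10. *Rag1* (chromosome 2, 101638252 to 101649532, minus strand) and *Rag2* (101624748 to 101632528, plus strand) are neighbours that are transcribed towards each other, with 5723 bases between their ends. *Dntt* is on chromosome 19 (41029275 to 41059525, plus strand). Chromosome 11 holds *Ikzf1* (11686213 to 11772926, plus strand), *Ebf1* (44618134 to 45005172, plus strand) and *Ikzf3* (98464693 to 98546031, minus strand). Chromosome 4 holds *Bach2* (32417435 to 32586108, plus strand) and *Pax5* (44531506 to 44710440, minus strand). *Tcf3* is on chromosome 10 (80409165 to 80433653, minus strand) and *Foxo1* on chromosome 3 (52268337 to 52350109, plus strand).

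Promoter sequence from RefSeq (GRCm38.p6) was matched for 9 of the 10 genes, with 11 promoter windows, since *Ebf1* and *Ikzf1* have a further one each. The 250 bases before the start site are printed for the recombination genes, since *Rag1* and *Dntt* take different courses below, and for *Foxo1*, the regulator of the recombinase genes. Capitals mark matches to 5 short motifs that were searched on both strands, and the other bases are in lower case, 5′ to 3′ along the gene. The windows are chr2:101649533-101649782 (minus strand) for *Rag1*, chr2:101624462-101624711 (plus strand) for *Rag2*, chr19:41029025-41029274 (plus strand) for *Dntt* and chr3:52268087-52268336 (plus strand) for *Foxo1*.
Rag1: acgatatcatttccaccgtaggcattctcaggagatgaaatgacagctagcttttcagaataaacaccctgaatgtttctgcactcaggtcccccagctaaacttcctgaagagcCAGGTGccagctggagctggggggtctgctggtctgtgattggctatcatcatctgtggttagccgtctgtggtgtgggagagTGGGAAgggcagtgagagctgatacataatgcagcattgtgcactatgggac
Rag2: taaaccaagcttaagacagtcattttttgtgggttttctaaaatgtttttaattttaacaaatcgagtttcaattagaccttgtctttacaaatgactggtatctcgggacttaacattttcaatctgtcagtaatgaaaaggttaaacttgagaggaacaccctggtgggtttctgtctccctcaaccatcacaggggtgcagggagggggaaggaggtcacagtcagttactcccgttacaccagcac
Dntt: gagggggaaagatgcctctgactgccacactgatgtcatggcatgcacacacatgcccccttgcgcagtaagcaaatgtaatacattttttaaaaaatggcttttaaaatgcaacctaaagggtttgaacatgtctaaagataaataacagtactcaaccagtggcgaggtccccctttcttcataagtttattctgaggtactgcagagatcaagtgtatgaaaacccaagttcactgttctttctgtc
Foxo1: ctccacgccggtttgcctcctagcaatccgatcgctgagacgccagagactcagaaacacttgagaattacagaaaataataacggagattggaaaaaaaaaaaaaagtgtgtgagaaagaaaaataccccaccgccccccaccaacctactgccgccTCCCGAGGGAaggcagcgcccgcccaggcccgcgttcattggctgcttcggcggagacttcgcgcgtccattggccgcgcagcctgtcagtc

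The motif letters were CAGGTG, an E-box bound by the E proteins of *Tcf3*, the EBF motif, TCCC and GGGA with any 2 bases between them, TGGGAA for Ikaros, TGTTTAC for forkhead factors, and TGANTCA, the core that AP-1 and MAF elements share and that BACH2 heterodimers bind. The *Rag1* window holds CAGGTG at 135 to 130 bases and TGGGAA at 52 to 47 bases before the start. The *Foxo1* window holds the EBF motif as TCCCGAGGGA at 92 to 83 bases before the start, and the further *Ebf1* window holds TGGGAA on the opposite strand at 207 to 202 bases. The *Rag2* and *Dntt* windows hold none of the 5 motifs. Over the 32851 RefSeq promoter windows of the same length, 17.2% hold CAGGTG, 0.779% the EBF motif, 21.6% TGGGAA, 3.17% TGTTTAC and 6.75% TGANTCA. Among the 11 windows of the described genes 1 holds CAGGTG, 1 the EBF motif, 2 TGGGAA, and 0 TGTTTAC or TGANTCA. A match describes letters only, and no factor binding was measured.

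Values are normalized counts, the deposited estimated read counts times a factor per library (1.02 in del10, 0.984 in ins2 and 1.10 in WT) that the trimmed mean of M-values (TMM) gives. The gene counts summed to 9823095 to 11111698 reads per library. The commonest low read count per gene was 16 in del10, 21 in ins2 and 61 in WT, and was taken as the reads that 1 starting fragment gave after amplification, equal to 16.3, 20.7 and 67.1 normalized counts in del10, ins2 and WT. Intervals are 95% exact intervals on these estimated fragments (Poisson for a level, Clopper-Pearson for a ratio) and cover counting error only, so the WT library, with the largest unit, has the widest ones at a given level. Ratios are on log2(normalized count + 1), and "past 2-fold" means a log2 ratio beyond 1 in either direction. The level over all genes is described on a main set of 7073 genes whose mean reached 215.3 normalized counts, which holds 9 of the 10 genes but not *Rag2*. *Kit*, which encodes the sorted c-Kit receptor, had 4177 normalized counts in del10, 3082 in ins2 and 286 in WT, and the progenitor marker *Cd34* had 1664 in del10 and 727 in ins2 and was listed at 0 in WT. *Ly6a*, which encodes Sca1, had 51.9, 120 and 145 in del10, ins2 and WT. These values are under 215.3 in every library and rest on few fragments. The Sca1 part of the label therefore cannot be judged from them in any library. In *Kit* the WT library stands apart from its LSK label. It also stands apart from both knock-in libraries in *Cd34*, which the label does not include. At 67.1 normalized counts per fragment, the WT value of *Kit* rests on few fragments. Every comparison with WT rests on this library, so the comparison of del10 with ins2, which leaves it out, is given beside the others.

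*Rag1*, *Ikzf3*, *Tcf3*, *Ebf1*, *Pax5*, *Foxo1* and *Bach2* were each under WT by more than 2-fold in both knock-in libraries, and *Rag2*, *Dntt* and *Ikzf1* were within 2-fold in both. In del10 against WT 7 of the 10 genes were over 2-fold lower, where 10.2% of the main set was, and 0 were over 2-fold higher, where 15.3% of the main set was. In ins2 against WT 7 were over 2-fold lower, against 10.7% of the main set, and none was over 2-fold higher, against 15.7%. The median log2 ratio of the 10 genes was −1.78 in del10 (range −2.55 to 0.08) and −1.44 in ins2 (range −2.85 to −0.09), while that of the main set was 0.04 in each. The counting interval left out 1 for the same 7 genes in both knock-in libraries, and lay wholly past 2-fold for 6 in del10 and 5 in ins2. The share of all genes by these interval rules was not computed, so these counts have no background beside them. Among the 2324 genes whose mean reached 1000 normalized counts, 6.80% were past 2-fold on the lower side in del10 and 7.83% in ins2. Both comparisons use the same WT library, so the second does not repeat the first independently. In bulk RNA fewer cells of a type and less RNA per cell cannot be told apart.

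**Figure D1:**
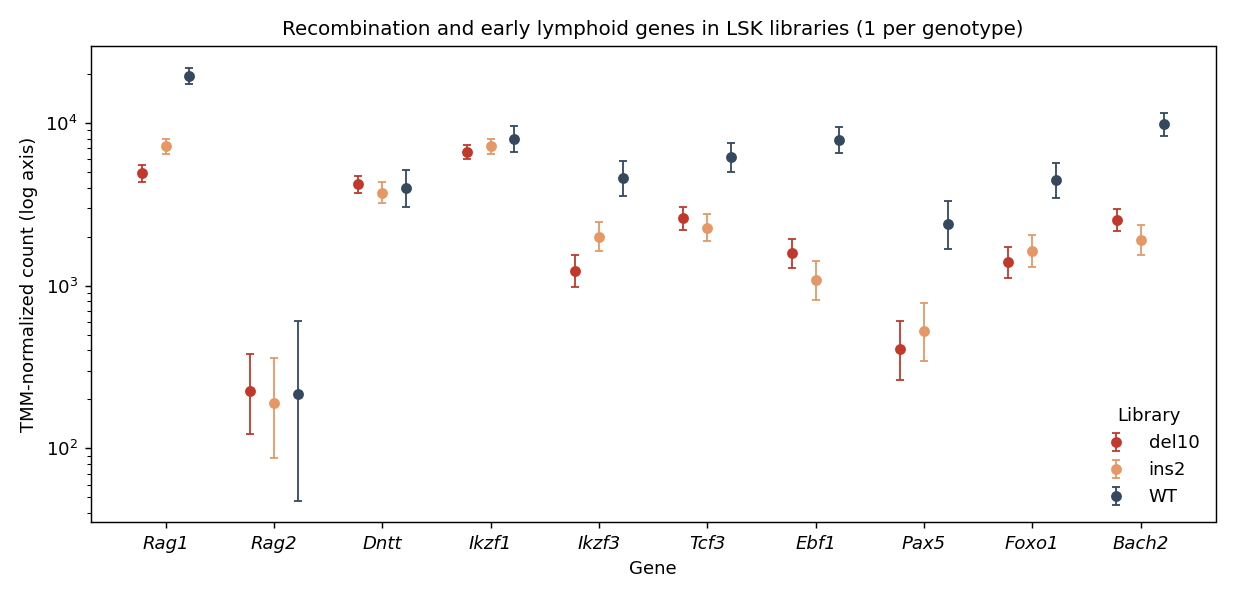
Normalized count (log axis) of the 10 genes in the del10, ins2 and WT libraries, 1 point per library, with 95% exact intervals on estimated fragments as bars. *Rag1* stands at 4899 in del10, 7175 in ins2 and 19498 in WT, whereas the points of *Dntt* lie between 3735 and 4194.

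Among the recombination genes, *Rag1*, the subunit that carries the catalytic site of the recombinase, had 4899 normalized counts in del10, 7175 in ins2 and 19498 in WT. It was 3.98-fold lower in del10 than in WT (interval 3.38 to 4.69) and 2.72-fold lower in ins2 (2.32 to 3.19). The WT value stood apart from both knock-in values, and the del10 value was also 1.47-fold lower than the ins2 value (1.25 to 1.72).

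*Rag2*, which encodes the partner subunit, had 225 normalized counts in del10, 189 in ins2 and 216 in WT. These levels rest on 13.8, 9.14 and 3.21 estimated fragments in del10, ins2 and WT, so the 3 libraries cannot be ordered. The ratio to WT was 1.04 in del10 (interval 0.299 to 5.29) and 0.877 in ins2 (0.226 to 4.69), so a difference of either sign was not detectable at this depth. In ins2 the interval includes the *Rag1* ratio of 0.368, and in del10 its lower bound lies a little above the *Rag1* ratio of 0.251. On the opposite strand the 5′ part of *Rag2* is overlapped by *B230118H07Rik* (101560781 to 101628986), which had 50.9 normalized counts in del10, 31.6 in ins2 and 150 in WT. No source used here says whether counting used the strand, so reads of the overlap cannot be told apart.

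*Dntt* had 4194 normalized counts in del10, 3735 in ins2 and 3981 in WT. Its ratio to WT was 1.05 in del10 (interval 0.792 to 1.42) and 0.938 in ins2 (0.696 to 1.28), and both intervals lie within 2-fold of WT. *Dntt* was thus near its WT level in the libraries where *Rag1* was over 2-fold lower. The count of *Rag1* was 1.17 times that of *Dntt* in del10, 1.92 times in ins2 and 4.90 times in WT. Against *Rag2* the ratio of counts was 21.8 in del10, 38.0 in ins2 and 90.5 in WT, with the few fragments of *Rag2* behind it.

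The Ikaros-family genes split. *Ikzf1*, which encodes Ikaros and is already active in multipotent progenitors, had 6653 normalized counts in del10, 7196 in ins2 and 8007 in WT. Its ratio to WT was 0.831 in del10 (interval 0.676 to 1.03) and 0.899 in ins2 (0.728 to 1.12), and both intervals include 1. *Ikzf3*, which encodes Aiolos and is active from later lymphoid precursors on, had 1237 in del10, 2004 in ins2 and 4583 in WT. It was 3.70-fold lower in del10 than in WT (2.63 to 5.21) and 2.29-fold lower in ins2 (1.65 to 3.15), and del10 was 1.62-fold lower than ins2 (1.19 to 2.22). The count of *Ikzf1* was 5.38 times that of *Ikzf3* in del10, 3.59 times in ins2 and 1.75 times in WT.

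The genes of the E protein, EBF1 and PAX5 sequence were all over 2-fold lower in both knock-in libraries. *Tcf3*, which encodes the E proteins at the head of the sequence, had 2600 normalized counts in del10, 2276 in ins2 and 6159 in WT, and was 2.37-fold lower in del10 (interval 1.81 to 3.08) and 2.71-fold lower in ins2 (2.03 to 3.60). Of the 7 lower genes *Tcf3* was nearest to WT in del10, and *Ikzf3* was nearest in ins2. *Ebf1*, the B-lineage specification factor, had 1587 in del10, 1088 in ins2 and 7865 in WT, 4.96-fold lower in del10 (3.76 to 6.55) and 7.23-fold lower in ins2 (5.18 to 10.2). *Pax5*, the commitment factor, had 409 in del10, 530 in ins2 and 2402 in WT, 5.88-fold lower in del10 (3.43 to 10.2) and 4.54-fold lower in ins2 (2.66 to 7.85). For *Ebf1* and *Pax5* both knock-in values were far under WT. *Ebf1* was 1.46-fold higher in del10 than in ins2 (1.03 to 2.08), while the interval of *Pax5* between del10 and ins2 (ratio 0.772, 0.427 to 1.39) includes 1. The antisense transcript *5730488B01Rik*, which lies within *Pax5*, had 40.7 normalized counts in WT and was listed at 0 in del10 and in ins2, far under the level of *Pax5*.

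*Foxo1*, the forkhead factor upstream of the recombinase genes, had 1396 normalized counts in del10, 1634 in ins2 and 4453 in WT. It was 3.19-fold lower in del10 (interval 2.28 to 4.45) and 2.73-fold lower in ins2 (1.94 to 3.83), and the interval between del10 and ins2 (ratio 0.855, 0.622 to 1.18) includes 1. *Bach2*, the repressor, had 2535 in del10, 1921 in ins2 and 9832 in WT, 3.88-fold lower in del10 (3.07 to 4.89) and 5.12-fold lower in ins2 (3.92 to 6.71). Both knock-in libraries were far under WT for *Bach2*, and del10 was 1.32-fold higher than ins2 (1.01 to 1.73).

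**Figure D2:**
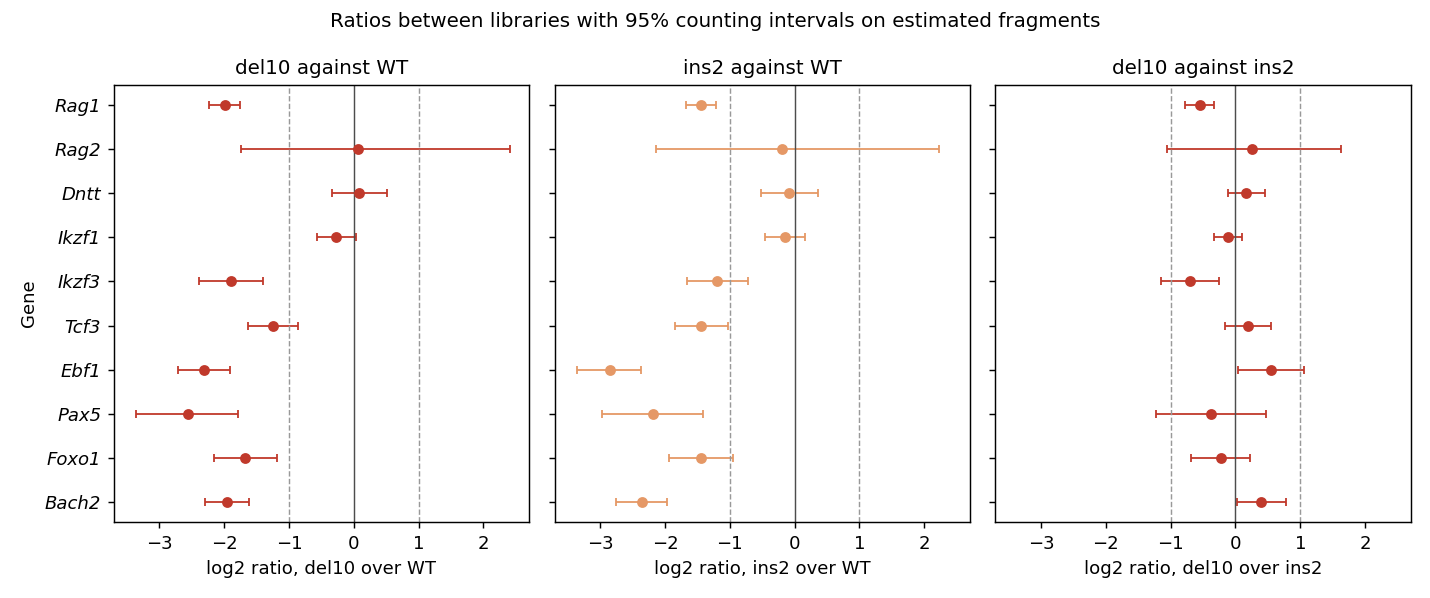
Log2 ratio of each of the 10 genes in del10 against WT, ins2 against WT and del10 against ins2, with 95% counting intervals on estimated fragments as bars and dashed lines at 2-fold. In both comparisons with WT 7 genes lie left of the 2-fold line, and in del10 against ins2 all 10 points lie between −0.70 and 0.54.

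Without the WT library none of the genes was past 2-fold. In del10 against ins2 0 of the 10 genes were over 2-fold lower or higher, where 4.03% of the main set was lower and 3.59% higher, and the median log2 ratio was 0.03, against 0.01 in the main set. The intervals left out 1 for 4 genes, and the share of all genes by this rule was not computed. *Rag1* (log2 ratio −0.55) and *Ikzf3* (−0.70) were lower in del10 than in ins2, and *Ebf1* (0.54) and *Bach2* (0.40) were higher. The other 6 genes had log2 ratios from −0.37 for *Pax5* to 0.25 for *Rag2*, with intervals that include 1.

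**Figure D3:**
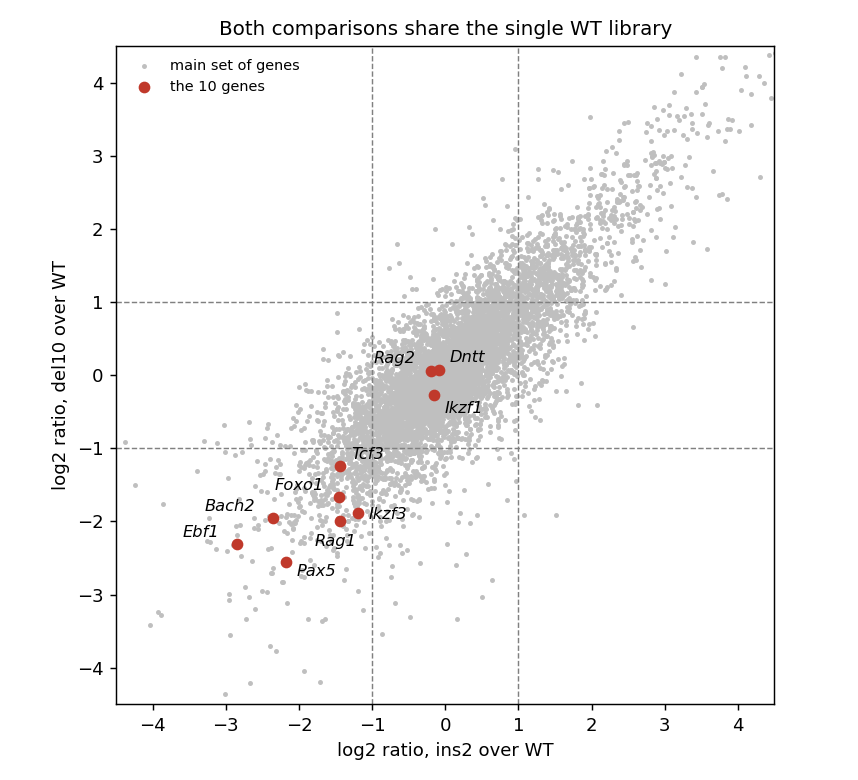
Log2 ratio to WT in ins2 (horizontal axis) and in del10 (vertical axis) of the 7073 genes of the main set (grey) and of the 10 genes (red), with dashed lines at 2-fold and 73 grey genes outside the axes. The 7 lower genes lie in the lower left corner and *Rag2*, *Dntt* and *Ikzf1* near the centre, and both axes share the WT library.

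Levels per kilobase of the longest protein-coding transcript set the genes in order within a library. In del10 the order of levels per kilobase was *Dntt* (1969), *Ikzf1* (1289), *Tcf3* (881), *Rag1* (741), *Ikzf3* (338), *Bach2* (285), *Ebf1* (265), *Foxo1* (161), *Rag2* (65.7) and *Pax5* (51.1). In ins2 it was *Dntt* (1753), *Ikzf1* (1394), *Rag1* (1086), *Tcf3* (772), *Ikzf3* (548), *Bach2* (216), *Foxo1* (189), *Ebf1* (182), *Pax5* (66.2) and *Rag2* (55.2). In WT it was *Rag1* (2951), *Tcf3* (2088), *Dntt* (1869), *Ikzf1* (1551), *Ebf1* (1315), *Ikzf3* (1253), *Bach2* (1107), *Foxo1* (514), *Pax5* (300.1) and *Rag2* (62.9). *Dntt* and *Ikzf1* thus led in both knock-in libraries and *Rag1* led in WT. Neighbours in this order had overlapping counting intervals in 4 of 9 pairs in del10, 5 of 9 in ins2 and 6 of 9 in WT. In WT *Tcf3*, *Dntt*, *Ikzf1*, *Ebf1*, *Ikzf3* and *Bach2* form a run in which no neighbours separate, and *Foxo1* does not separate from *Pax5*. In del10 *Tcf3* with *Rag1*, *Ikzf3* with *Bach2* and *Ebf1*, and *Rag2* with *Pax5* do not separate, and in ins2 *Dntt* with *Ikzf1*, *Tcf3* with *Ikzf3*, *Bach2* with *Foxo1* and *Ebf1*, and *Pax5* with *Rag2* do not.

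Markers of B-lineage cells were lower in the same libraries as the 7 lower genes. Of 17 B-lineage markers, such as the B-cell receptor component *Cd79a*, all were in the main set, none was at 0 in any library, and 15 were over 2-fold lower than WT in del10 and 14 in ins2. The main-set share on the lower side, for these and the lists below, was 10.2% in del10 and 10.7% in ins2. The median log2 ratio of the B-lineage markers was −1.79 in del10 and −1.84 in ins2, and their summed level was 16271 normalized counts in del10, 15005 in ins2 and 53716 in WT. *Cd79a* had 997 in del10, 995 in ins2 and 4234 in WT. The part of these markers in the result was not tested. The 12 stem and progenitor markers summed to 16335 in del10, 12874 in ins2 and 2041 in WT, with 1, 2 and 5 of them at 0 in del10, ins2 and WT. Only 6 of them reached the main set, and 5 of these were over 2-fold higher in each knock-in library. *Cd34* and *Flt3*, at 0 and 71.5 in WT, reached it only through the knock-in libraries, so nothing is read from their calls. Markers that the filter left out, *Ly6a* among them, are not in this count. The main-set share on the higher side was 15.3% in del10 and 15.7% in ins2. The basophil and mast cell markers summed to 29131 in del10, 20302 in ins2 and 1565 in WT, the stromal markers to 3861, 6043 and 10635, and the T and NK cell markers to 4186, 11193 and 3852, in the same order of libraries. Neutrophil and monocyte markers summed to 4449 in del10, 2892 in ins2 and 1851 in WT, erythroid and megakaryocyte markers to 11306, 8531 and 10244, and plasma cell and plasmacytoid dendritic cell markers to 1810, 2722 and 2839. Similar sums can cover members that differ. Of 6 erythroid and megakaryocyte markers in the main set, del10 held 1 over 2-fold lower and 3 higher, and ins2 held 2 lower and 2 higher. Of 4 plasma cell and plasmacytoid dendritic cell markers there, each knock-in library held 1 lower and 0 higher. The part of these lists was likewise not tested.

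Set against the summed B-lineage markers of their own library, the genes spread to both sides of WT. That sum was 3.3-fold lower in del10 and 3.58-fold lower in ins2 than in WT. Any gene at its WT level therefore rises by the same factor on this scale. The share of all genes past 2-fold on this scale was not computed, so a rise is not read as particular to these genes. Per 1000 B-lineage counts *Rag1* had 301 in del10, 478 in ins2 and 363 in WT, *Foxo1* had 85.8, 109 and 82.9, and *Ikzf3* had 76.0, 134 and 85.3 in del10, ins2 and WT. For these 3 genes ins2 was the highest on this scale. *Dntt* had 258 in del10, 249 in ins2 and 74.1 in WT, and *Ikzf1* had 409, 480 and 149, so these 2 genes were over 2-fold higher in both knock-in libraries on this scale. *Rag2* had 13.8, 12.6 and 4.01 on its few fragments. *Tcf3* had 160 in del10, 152 in ins2 and 115 in WT and was also above WT on this scale. *Ebf1* was still under WT, with 97.5 in del10, 72.5 in ins2 and 146 in WT, as did *Pax5* with 25.1, 35.3 and 44.7 and *Bach2* with 156, 128 and 183. This scale takes the marker sum as given and carries no replicate error.

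**Figure D4:**
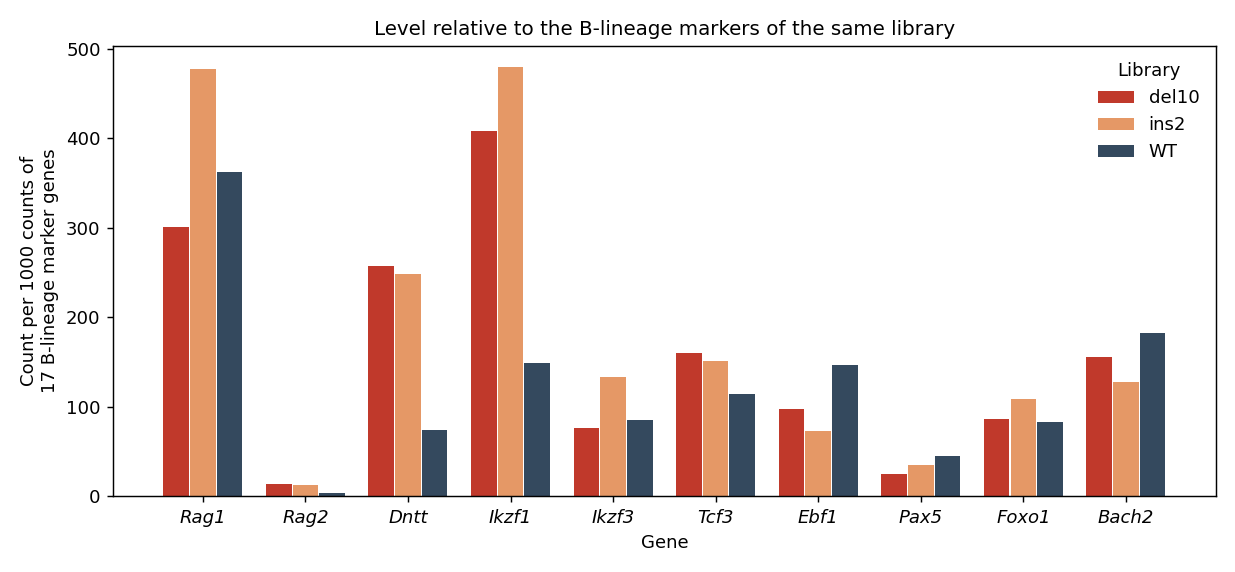
Level of the 10 genes per 1000 normalized counts of 17 B-lineage markers in the same library (bars, 1 per library, from 0). *Dntt* stands at 258 in del10 and 249 in ins2 against 74.1 in WT, and *Ebf1* at 97.5 and 72.5 against 146. The marker sum itself was lower in both knock-in libraries than in WT, which raises every gene there on this scale.

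Within the sequence of B-lineage regulators the ratios between genes can be set side by side. The count of *Tcf3* was 1.64 times that of *Ebf1* in del10, 2.09 times in ins2 and 0.783 times in WT. The count of *Ebf1* was 3.88 times that of *Pax5* in del10, 2.06 times in ins2 and 3.27 times in WT, and that of *Bach2* was 6.20, 3.63 and 4.09 times that of *Pax5* in del10, ins2 and WT. *Pax5* rests on 25.1 estimated fragments in del10, 25.6 in ins2 and 35.8 in WT, and no interval was computed for these ratios, so no order of libraries is read from those to *Pax5*. The ratios are of counts, not of levels per length.

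Genes of the same pathways outside the 10 were less uniform. Of 15 genes of end joining, the damage response and other steps of recombination, 12 reached the main set. In del10, where 10.2% of the main set was lower, 3 of these were over 2-fold lower, 0 higher and 9 within 2-fold of WT. These 12 genes had the same counts in ins2, where 10.7% of the main set was lower. Their median log2 ratio was 0.03 in del10 and −0.05 in ins2, near that of the main set. *Polm*, the DNA polymerase mu gene and a relative of *Dntt*, had 291 normalized counts in del10, 376 in ins2 and 1435 in WT, 4.93-fold lower in del10 and 3.82-fold lower in ins2. *Lig4*, the ligase of end joining, had 493 in del10, 479 in ins2 and 1395 in WT, and *Xrcc6*, which encodes the Ku70 subunit that binds DNA ends, had 1287, 1333 and 3345 in del10, ins2 and WT. *Xrcc5*, which encodes its partner, had 321 in del10, 295 in ins2 and 186 in WT, with ratios of 1.73 (interval 0.493 to 9.93) in del10 and 1.59 (0.430 to 9.40) in ins2 that do not separate from WT. *Polm*, *Lig4* and *Xrcc6* are the 3 lower genes of the list.

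Of 36 other lymphoid regulators, 33 were in the main set, of which 7 were over 2-fold lower and 5 higher in del10, and 7 lower and 4 higher in ins2. Their median log2 ratio was 0.08 in del10 and 0.03 in ins2, against −1.78 and −1.44 for the 10 genes. Over the main set, 10.2% of genes were lower and 15.3% higher in del10, and 10.7% lower and 15.7% higher in ins2. *Pou2af1*, a B-cell coactivator, had 902 normalized counts in del10, 1140 in ins2 and 5909 in WT, 6.55-fold lower in del10 (ratio 0.153, interval 0.107 to 0.216) and 5.19-fold lower in ins2 (ratio 0.193, 0.135 to 0.273). *Irf4*, a factor of pre-B and plasma cells, had 2641 in del10, 1665 in ins2 and 12008 in WT, and *Spib*, an ETS factor of B cells and plasmacytoid dendritic cells, had 1556, 1577 and 6665 in del10, ins2 and WT. *Lmo2*, a stem and progenitor cofactor, had 1413 in del10, 1443 in ins2 and 333 in WT, so that del10 was 4.24-fold (1.74 to 13.5) and ins2 4.33-fold (1.77 to 13.8) above WT.

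Of 10 lymphoid priming genes, all in the main set, 2 were over 2-fold lower and 2 higher in del10, and 1 was lower and 4 higher in ins2. Their median log2 ratio was 0.03 in del10 and 0.56 in ins2. The main-set shares were 10.2% lower and 15.3% higher in del10, and 10.7% lower and 15.7% higher in ins2. *Flt3*, the receptor of lymphoid-primed progenitors, had 1533 normalized counts in del10, 1682 in ins2 and 71.5 in WT, where it rests on about 1 estimated fragment. *Cd27* had 394 in del10, 742 in ins2 and 201 in WT. Its ratio to WT was 1.958 in del10 (interval 0.5954 to 10.15), which includes 1, and 3.688 in ins2 (1.165 to 18.72). *Flt3* and *Cd27* reached the main set only through the knock-in libraries, which favours a call on the higher side. *Ly6d*, a marker of progenitors biased to the B lineage, had 425 in del10, 550 in ins2 and 1541 in WT, lower in both knock-in libraries as the 7 lower genes were. *Dntt* and *Ikzf1*, with log2 ratios of 0.08 and −0.27 in del10, lay between *Ly6d* (−1.86) and the higher *Flt3*.

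**Figure D5:**
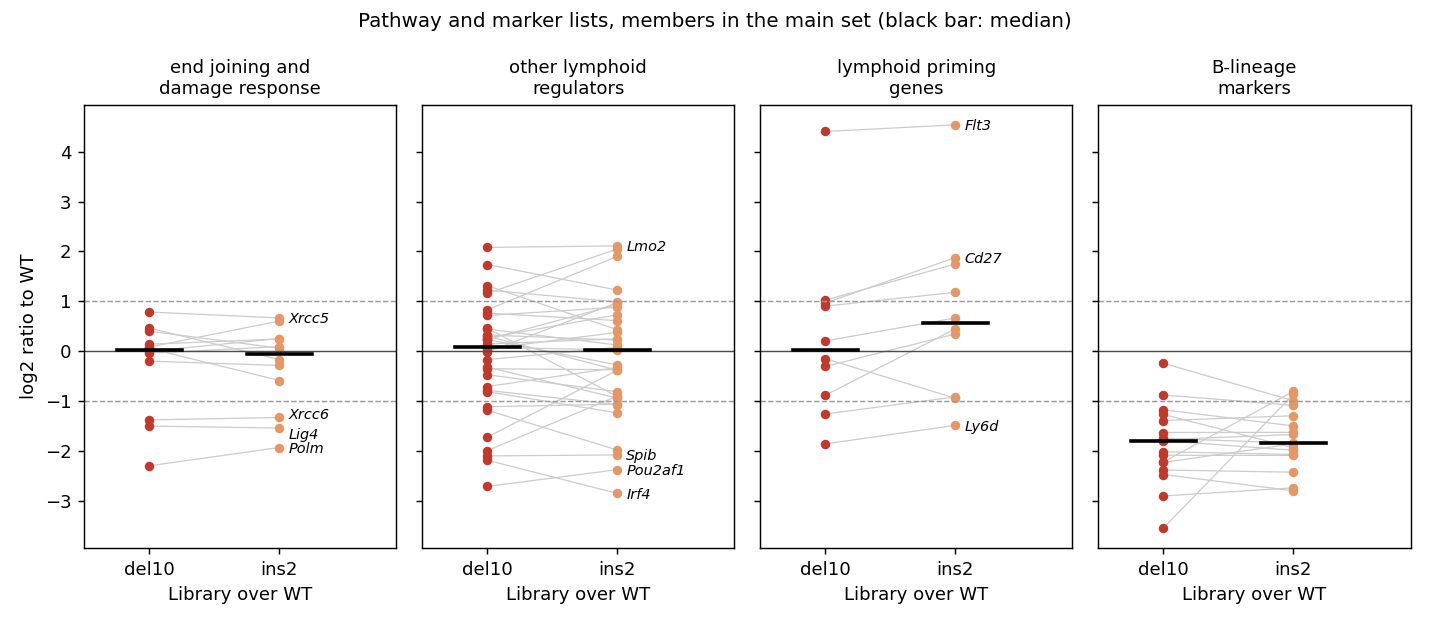
Log2 ratio to WT in del10 and ins2 (points joined per gene) for the main-set members of the lists of end joining, other lymphoid regulators, lymphoid priming and B-lineage markers, with black bars at the medians and dashed lines at 2-fold. The B-lineage markers have medians of −1.79 in del10 and −1.84 in ins2, and the other lists have medians between −0.05 and 0.56.

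The genes with a pattern most like a given member were named by the distance between their pairs of log2 ratios, over 3 libraries and among main-set genes whose mean level is within 2-fold of the member's. For *Ebf1* they were *Irf4* (distance 0.12), *Cd79b* (0.17) and *Cecr2* (0.17) of 1087 candidates. For *Rag1* they were *Arsb* (0.42), *Smarca4* (0.42) and *Xkrx* (0.63) of 159 candidates. For *Ikzf1* they were *Fmnl1* (0.0040), *Top2b* (0.03) and *Ddx17* (0.05) of 321 candidates. *Rag1* had the most distant neighbours of these 3 genes and the fewest candidates at its level.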

How the data were processed

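LSK cells were sorted from bone marrow, and 5 ng of RNA went into each library, with ribosomal RNA depletion and a directional kit and sequenced as 75-bp single-end reads. Per the submitters' processing notes, bcl2fastq 2.20, Trimmomatic 0.32, TopHat2 2.1.1 and Bowtie2 2.2.3 were used with mm10. Use of strand in counting and removal of duplicates are not given in the sources used here. The authors deposited an estimated count per RefSeq gene and library, with fractions of reads. They also deposited log2 values after TMM scaling, and 1 factor per library turned the counts into them. Of the per-sample columns, 0 were left unmapped.

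Normalized counts were the deposited estimated counts times these factors, and log2 ratios used a pseudocount of 1. The unit of 1 fragment was the peak of the smoothed histogram of read counts per gene (5 counts to each side, between 5 and 150 reads), and exact binomial intervals (95%) used counts divided by it, fractions kept. The main set held genes at or above the median level of 14145 detected genes. The genes were named by rule: all 10 members, of each pathway list the 4 with the largest mean ratio to WT, and the 3 nearest genes for *Rag1*, *Ebf1* and *Ikzf1*. Of the genes this rule and the marker list name, 2 are not reported here. *Spi1* was matched through an older symbol, and *Rn45s* was part of the library sums (15.0% to 16.7%). The members, the 11 gene lists and the motifs were chosen with earlier results of these data known. Transcript lengths came from GENCODE vM21. The steps were tested on simulated data. Alternatives were pseudocounts of 0.5 and 10, other scalings, a floor of 3 reads and other filters. Python 3.11.15, NumPy 2.4.6, pandas 2.3.3, SciPy 1.17.1 and matplotlib 3.10.9 were used.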

Additional observations from a re-analysis of the deposited data

Results flagged for a closer look

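*Rag2* lay above WT in del10 (log2 ratio 0.06) and below WT in ins2 (−0.19), a difference of 0.25 between the knock-in libraries. *Dntt* likewise lay above WT in del10 (0.08) and below it in ins2 (−0.09), a difference of 0.17. These are the genes of the 10 whose single del10 and ins2 libraries lay on opposite sides of WT. The differences were not tested, as each genotype had 1 library, and the counting intervals of all 4 ratios to WT include 1.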

How the results depend on the processing

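Under pseudocounts of 0.5 and 10, median-of-ratios scaling, scaling by summed reads without *Rn45s*, and a floor of 3 reads, 150 ratios of the 10 genes were recomputed. They moved by at most 0.05 on the log2 scale, with 0 changes of sign and 0 crossings of 2-fold, and the counts of 7, 7 and 0 genes past 2-fold in del10 against WT, ins2 against WT and del10 against ins2 stayed as given. Another filter moved only the shares over all genes. With no filter on low values 15.5% of genes were over 2-fold lower and 30.2% higher in del10 than in WT, and 28.7% were higher in ins2. With no filter, 14.0% were over 2-fold lower and 15.4% higher in del10 than in ins2. At a mean of at least 1000 normalized counts these 5 shares were 6.80%, 8.82%, 8.86%, 0.645% and 0.818%. No paired analysis was possible because each genotype has 1 library, and for the same reason no replicate could be left out. Depth limits *Rag2* most, at 3.21 estimated fragments in WT.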
